A study of Mus musculus with 6 samples.

Results

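The BMP and TGF-beta pathway genes were a list of 40 genes that encode secreted ligands, their receptors, the Smad proteins, extracellular antagonists, and the Id and Msx target genes. They were picked by name and not by signal. On the array, 39 of the 40 had at least 1 probe set of their own, among 18193 genes with such a probe set, and Mstn was not analysed here. Of the 39 genes, 28 were above the signal filter used for testing (mean log2 signal over 7 in either genotype), against 10529 of all genes, and 11 were below it.

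The arrays measured RNA of mouse embryonic retina lacking Onecut1 (OC1-KO, n = 3) and of wildtype retina (WT, n = 3), with 1 embryo per array, at embryonic day 14 by the sample labels, which the series text places later in the same day. Onecut1 encodes a transcription factor that is present in retinal precursors and in horizontal and ganglion cells at this age. The OC1-KO embryos carried a germline deletion, so every tissue of the embryo lacked the gene, and both genotypes came from a line made with R1 embryonic stem cells in a "Swiss" strain and then crossed to C57Bl/6 for a few generations, which leaves a mixed background. No other treatment or allele was given for either genotype.

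BMP, TGF-beta and activin ligands are secreted proteins that bring together type I and type II receptor kinases on the cell surface. The activated type I receptor phosphorylates a receptor Smad, which joins Smad4 and moves to the nucleus to regulate targets such as the Id and Msx genes, whereas Smad6 and Smad7 are inhibitory Smads that the pathway itself induces. In the embryonic eye BMP signalling is known for its part in lens induction, in the dorsal identity of the retina and at the ciliary margin, and TGF-beta signalling for its part in the periocular mesenchyme and in limiting progenitor growth.

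The upstream sequences of an inhibitory Smad and of 3 Id genes are given because these genes are classical direct targets of Smad proteins and Smad6 had the largest difference among the members above the filter. Each sequence holds the 250 bases before an annotated start, read 5′ to 3′ on the strand of the gene, in the GRCm38.p6 build of RefSeq. The windows were Smad6 at chr9:64022060-64022309 (minus strand), Id2 at chr12:25096093-25096342 (minus strand), Id3 at chr4:136143572-136143821 (plus strand) and Id4 at chr13:48260866-48261115 (plus strand). Smad6 itself spans 63953076 to 64022085, so the bases of its window nearest the start lie inside the annotated gene. Capitals mark matches, on either strand, to GGCGCC (the GC-rich element bound by BMP Smads), to CAGAC (a Smad binding element) or to ATCAAT or ATCGAT (core letters of Onecut sites).
Smad6: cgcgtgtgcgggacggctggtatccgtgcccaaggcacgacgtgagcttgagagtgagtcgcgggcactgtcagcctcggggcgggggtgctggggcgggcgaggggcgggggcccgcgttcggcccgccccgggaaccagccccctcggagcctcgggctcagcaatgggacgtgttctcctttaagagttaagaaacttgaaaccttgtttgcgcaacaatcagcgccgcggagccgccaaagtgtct
Id2: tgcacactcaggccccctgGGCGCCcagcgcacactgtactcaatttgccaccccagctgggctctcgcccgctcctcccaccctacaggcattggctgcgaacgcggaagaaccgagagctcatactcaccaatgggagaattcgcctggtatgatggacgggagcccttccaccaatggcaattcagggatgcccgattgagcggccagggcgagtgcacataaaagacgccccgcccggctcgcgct
Id3: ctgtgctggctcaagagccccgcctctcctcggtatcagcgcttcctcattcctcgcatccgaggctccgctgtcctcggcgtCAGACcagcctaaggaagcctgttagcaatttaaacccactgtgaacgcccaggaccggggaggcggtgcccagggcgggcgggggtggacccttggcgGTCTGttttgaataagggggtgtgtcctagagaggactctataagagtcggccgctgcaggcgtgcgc
Id4: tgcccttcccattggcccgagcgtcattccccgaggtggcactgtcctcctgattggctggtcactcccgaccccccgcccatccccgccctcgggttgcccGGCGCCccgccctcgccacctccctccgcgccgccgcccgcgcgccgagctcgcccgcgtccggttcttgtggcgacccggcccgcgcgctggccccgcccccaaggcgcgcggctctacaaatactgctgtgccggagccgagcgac
No match was found in the Smad6 window. The Id2 and the Id4 windows each held 1 GGCGCC, the Id3 window held 2 CAGAC matches on opposite strands, and no matches overlapped. RefSeq starts gave 35 windows, for 30 of the 40 listed genes (some have several starts). GGCGCC was present in 8 of the 35 (9.59% of all 32851 windows), CAGAC in 14 of the 35 (42.2% of all windows) and the Onecut letters in 1 of the 35, a window of Smad5 (7.40% of all windows). These matches describe the letters in these windows only.

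Neither of 2 Onecut1 probe sets separated the genotypes. The brighter had log2 signals of 9.02, 8.31 and 9.67 in OC1-KO and 9.25, 8.76 and 9.005 in WT. The other had 8.94, 7.51 and 9.30 in OC1-KO and 8.51, 8.43 and 9.30 in WT. The position of the probes relative to the deleted part was not given in the sources used here. The 6 markers of retinal progenitors that were measured were all above the filter. Their summed linear signal was 63244 to 85957 in OC1-KO and 57920 to 81001 in WT. OC1-KO 3 and WT 3 were unlike the remaining arrays: the sum of 8 lens markers was 10856 in OC1-KO 3 and 22362 in WT 3, against 147 to 329 in the other 4 embryos. The sum of 5 red blood cell markers was 23825 and 16451 in these embryos, against 44.1 to 714. The 7 measured periocular mesenchyme markers summed to 2405 and 2851, against 440 to 681, and the 7 pigment epithelium markers to 2088 and 802, against 300 to 580. No summed list was at 0 on any array.

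The pathway genes had nearly the same signal in OC1-KO as in WT retina. Of the 28 genes above the filter, 11 were higher (47.7% of all probe sets) and 17 were lower in OC1-KO, the median difference (OC1-KO minus WT) was -0.02 log2 units, and 21 differed by less than 0.2. The same median over all 20888 probe sets above the filter was -0.01. The median size of the difference, whatever its sign, was 0.08 for the 28 genes and 0.08 for all genes above the filter. The standard error of a difference had a median of 0.17 (0.13 to 0.48), so most of the differences lay within their own error.

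**Figure D1:**
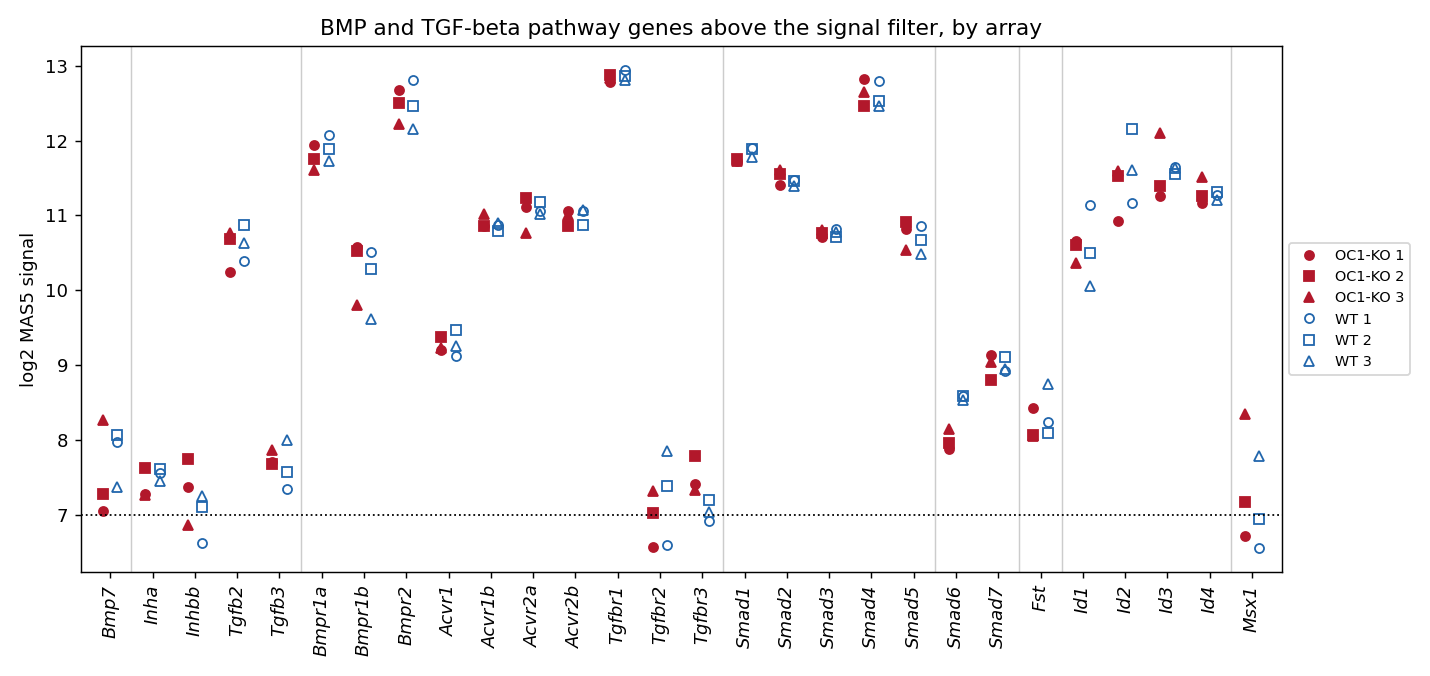
The log2 MAS5 signal (vertical axis) of the 28 genes above the filter is plotted for each array, with OC1-KO in filled red and WT in open blue symbols, the marker shape giving the embryo number, grey lines parting the roles and the dotted line marking the filter at 7. The genotypes overlap for all genes but Smad6, Tgfbr3 and Smad1.

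No pathway gene passed the test across all probe sets, and no probe set of any gene did (limma, adjusted p under 0.05: 0 of 28 members and 0 of 20888 probe sets, 0.0%). At an unadjusted p under 0.05, limma called 2 of the 28, Tgfbr3 higher and Smad6 lower, against 1.01% of all probe sets. With embryo number as a block, the members called were again these 2, against 4.37% of all probe sets. The 3 OC1-KO values did not overlap the 3 WT values in 3 of the 28 genes, Tgfbr3, Smad6 and Smad1, against 3.56% of all probe sets. The exact permutation test of 3 against 3 arrays cannot go below p = 0.1 (two-sided). Because whole retina was measured, fewer cells of a type and less RNA per cell cannot be told apart.

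**Figure D2:**
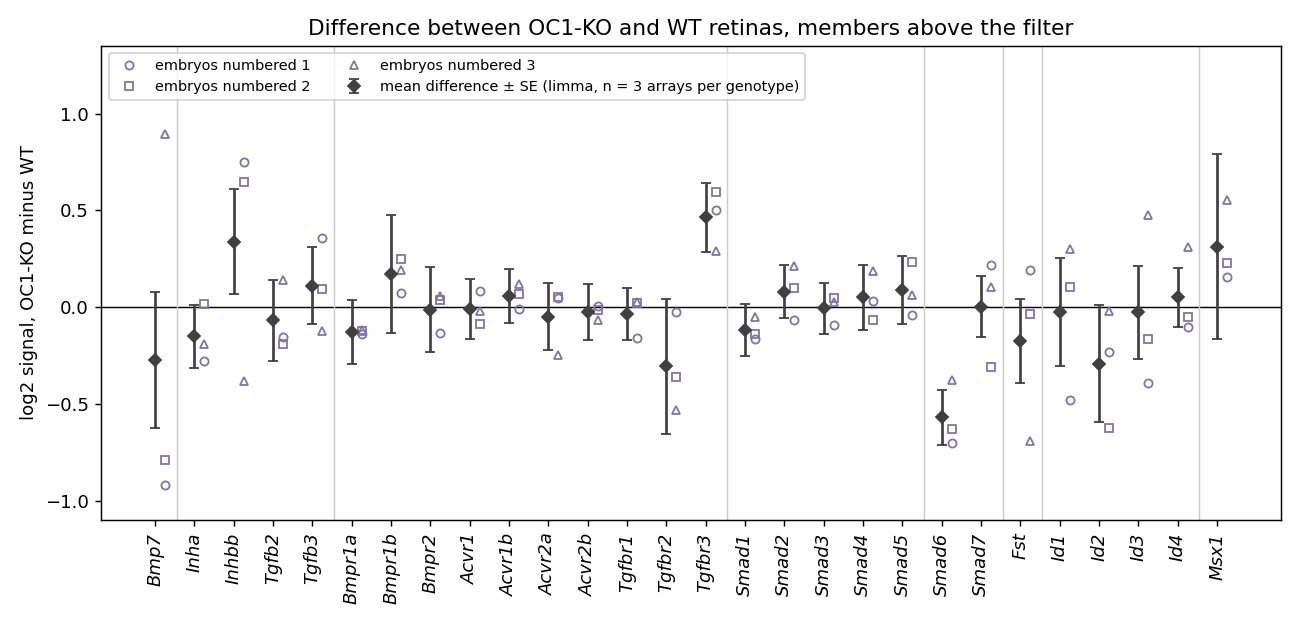
The difference in log2 signal (OC1-KO minus WT, vertical axis) is drawn with its limma standard error for each gene above the filter, grouped by role. Open symbols give the difference within each embryo number. Smad6 at -0.57 and Tgfbr3 at 0.46 lie farthest from 0, and the receptor Smads with Smad4 lie between -0.12 and 0.09.

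The BMP ligands were mostly dim. Bmp7, which acts in lens induction and in eye growth, was the only one of 5 above the filter. Its log2 signal was 7.05, 7.28 and 8.26 in OC1-KO, against 7.97, 8.07 and 7.37 in WT. OC1-KO was below WT for embryos 1 and 2 and above it for embryos 3, so the groups overlapped (difference -0.27, SE 0.35, limma unadjusted p = 0.465). Without the embryos numbered 3 the difference was -0.86 (limma unadjusted p = 0.00522, 2 against 2 arrays), and without OC1-KO 3 alone it was -0.64 (unadjusted p = 0.0458). Leaving out both embryos numbered 3 is a setting in which 2.23% of all probe sets had an unadjusted p under 0.05. Bmp2, which patterns many embryonic tissues, stayed below the filter, with 5.64, 5.44 and 6.25 in OC1-KO and 5.55, 6.37 and 6.28 in WT. Bmp4, a BMP of the dorsal optic cup, had 3.92, 5.07 and 7.11 in OC1-KO and 3.93, 3.15 and 5.48 in WT. The embryo numbered 3 was the highest of its genotype for Bmp4, and the groups overlapped (difference 1.18, SE 0.98, and 0.96, SE 0.56, without both embryos numbered 3). Bmp6 had 5.84, 6.49 and 3.42 in OC1-KO and 4.22, 2.58 and 5.85 in WT, also overlapping (difference 1.03, SE 1.13). Without the embryos numbered 3 it was 2.76 higher in OC1-KO (limma unadjusted p = 0.0206), at a level below the filter. Bmp5 was below the filter and its difference was 0.35 (SE 0.43).

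Of the 7 TGF-beta and activin ligands measured, 4 were above the filter, with differences between -0.15 and 0.34. Tgfb2, a TGF-beta of the embryonic eye, had log2 signals of 10.24, 10.69 and 10.77 in OC1-KO and 10.39, 10.88 and 10.63 in WT. Tgfb3 had 7.70, 7.67 and 7.87 in OC1-KO and 7.34, 7.58 and 7.99 in WT. Both overlapped between genotypes (differences -0.07, SE 0.21, and 0.11, SE 0.20). Inhbb, the beta-B subunit of activin, had 7.37, 7.74 and 6.86 in OC1-KO and 6.62, 7.09 and 7.24 in WT, and the groups overlapped (difference 0.34, SE 0.27). Without the embryos numbered 3 it was 0.70 higher in OC1-KO (limma unadjusted p = 0.0390, 2 against 2 arrays). Inhba, the beta-A subunit of activin, was below the filter with 3.02, 3.53 and 4.71 in OC1-KO and 6.04, 3.16 and 4.07 in WT. Inha, the inhibin alpha subunit, differed by -0.15 (SE 0.16), and Gdf11 and Tgfb1 were below the filter.

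All 10 receptors were above the filter, 3 higher and 7 lower in OC1-KO, with a median difference of -0.02. Tgfbr3, or betaglycan, a co-receptor that presents TGF-beta 2 to the signalling receptors and binds inhibin, had log2 signals of 7.41, 7.79 and 7.33 in OC1-KO and 6.91, 7.19 and 7.04 in WT. Every OC1-KO array was above every WT array. The means were 7.51 ± 0.24 in OC1-KO and 7.05 ± 0.14 in WT (SD, n = 3 each), so OC1-KO was higher by 0.46 (SE 0.18), 1.38-fold, with a limma unadjusted p of 0.0359 (0.0105 with the block) and an adjusted p of 1.00 (0.999 with the block). The other Tgfbr3 probe set was below the filter and went the other way, with overlapping groups. It had 5.39, 5.45 and 0.25 in OC1-KO and 3.16, 4.32 and 5.64 in WT (difference -0.68, SE 1.57). On the brighter probe set, OC1-KO was higher by 0.50, 0.60 and 0.29 embryo by embryo. Leaving out single arrays, or both embryos numbered 3, moved the difference between 0.33 and 0.55, and the unadjusted limma p was over 0.05 without OC1-KO 1 (0.0533), OC1-KO 2 (0.119), WT 1 (0.104), WT 3 (0.0799) or both embryos numbered 3 (0.0546), as well as with no filter (0.0771), with an intensity trend (0.0987) and in the methods' test, which does not pool the spread over genes (0.0600).

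The signalling receptors differed less. Tgfbr1, the type I receptor for TGF-beta, had log2 signals of 12.79, 12.88 and 12.84 in OC1-KO and 12.95, 12.86 and 12.81 in WT. Bmpr2, the type II receptor for BMPs, had 12.68, 12.50 and 12.22 in OC1-KO and 12.81, 12.46 and 12.16 in WT. In both genes the genotypes overlapped (differences -0.04, SE 0.13, and -0.01, SE 0.22), and Bmpr2 followed the embryo number in both genotypes. Tgfbr2, the type II receptor for TGF-beta, had 6.56, 7.02 and 7.31 in OC1-KO and 6.59, 7.38 and 7.84 in WT. It was lower in OC1-KO for all 3 embryo numbers although the groups overlapped (difference -0.31, SE 0.35, limma unadjusted p = 0.409, with the block 0.0775). The type I BMP receptors Bmpr1a and Bmpr1b differed by -0.13 (SE 0.17) and 0.17 (SE 0.31). Acvr1, Acvr1b, Acvr2a and Acvr2b, receptors for activins or BMPs, lay between -0.05 and 0.06.

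The receptor Smads and Smad4, which carry the signal to the nucleus, lay between -0.12 and 0.09. Smad1, a receptor Smad of the BMP branch, had log2 signals of 11.73, 11.75 and 11.73 in OC1-KO and 11.90, 11.89 and 11.78 in WT. All 3 OC1-KO arrays were below all 3 WT arrays, but the gap was small: 11.74 ± 0.01 in OC1-KO and 11.86 ± 0.06 in WT (SD, n = 3 each), a difference of -0.12 (SE 0.13, limma unadjusted p = 0.399). With each array centred on its median, the genotypes overlapped for Smad1. Its other 2 probe sets, without this centring, were lower in OC1-KO as well. Smad4, the common partner, had 12.82, 12.46 and 12.65 in OC1-KO and 12.79, 12.53 and 12.47 in WT, and the groups overlapped (difference 0.05, SE 0.17). Smad3, of the TGF-beta branch, had the smallest range of the 28 genes, 0.10 over the 6 arrays. Smad2 and Smad5 were 0.08 and 0.09 higher, each less than its SE of 0.14 and 0.18.

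Of the inhibitory Smads, Smad6 was lower in OC1-KO on every array, without passing adjustment, and the genotypes overlapped for Smad7. Smad6, which blocks the BMP branch in particular, had log2 signals of 7.88, 7.96 and 8.15 in OC1-KO and 8.59, 8.59 and 8.53 in WT. Every OC1-KO array was below every WT array. The means were 7.997 ± 0.138 in OC1-KO and 8.568 ± 0.036 in WT (SD, n = 3 each), a difference of -0.57 (SE 0.14), that is 1.49-fold higher in WT, with a limma unadjusted p of 0.00550 (0.00478 with the block) and an adjusted p of 1.00 (0.999 with the block). OC1-KO was lower by 0.70, 0.63 and 0.38 for embryos 1, 2 and 3. Leaving out single arrays, or both embryos numbered 3, moved the difference only between -0.67 and -0.51. The 7 markers of endothelium, a cell type in which Smad6 is also known to be present, had overlapping sums of 1608 to 2483 in OC1-KO and 1558 to 2265 in WT. Kdr alone made up 71.9% to 88.2% of that sum, and 5 of the 7 markers were below the filter. Tie1, one of these, had dim log2 signals of 1.71 to 5.13 and was lower in OC1-KO in 3 of 3 pairs (difference -1.89, SE 0.85, limma unadjusted p = 0.0703, with the block 0.0461). The other endothelium markers differed less and in both directions, from -0.20 (Pecam1) to 0.34 (Tek). The 5 horizontal cell markers, Onecut1 among them, summed to 3933 to 4129 in OC1-KO and 4202 to 5028 in WT, but each of the 5 markers overlapped between genotypes, and Onecut1 itself differed by -0.01. The part of either cell type in the Smad6 difference was not tested.

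Smad7, which blocks both branches, had log2 signals of 9.13, 8.80 and 9.04 in OC1-KO and 8.92, 9.11 and 8.94 in WT. The values overlapped fully and the difference was 0.00 (SE 0.16). The difference between Smad6 and Smad7 in their response was not tested.

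**Figure D3:**
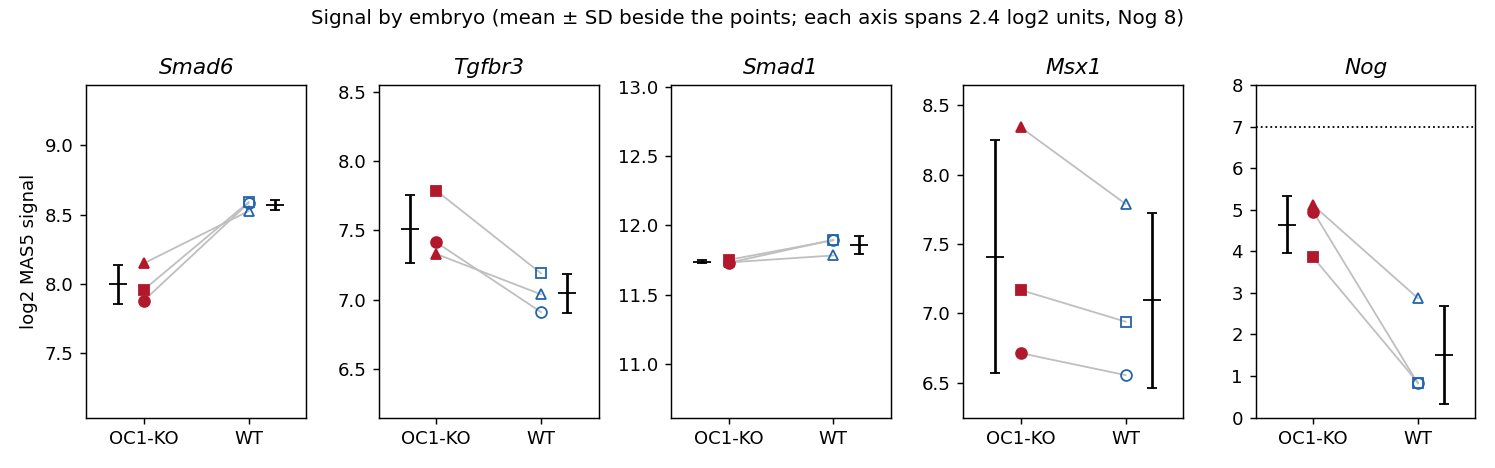
The log2 MAS5 signal (vertical axis) of Smad6, Tgfbr3, Smad1, Msx1 and Nog is plotted for each embryo, OC1-KO left of WT, with grey lines joining embryos of the same number and bars giving the mean and SD of 3. Smad6 and Smad1 are lower and Tgfbr3 and Nog higher in every OC1-KO array, Nog lies below the dotted filter line at 7 on all 6 arrays, and Msx1 follows the embryo number.

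Smad6 lies on mouse chromosome 9 (63953076 to 64022085, GRCm38.p6), 10.8 Mb from Onecut1 (74861921 to 74889648), and in a mixed strain background the genotype and strain alleles linked to it cannot be told apart. Bmp5, which was below the filter, is the member nearest to Onecut1, at 0.89 Mb, and differed by 0.35 (SE 0.43). Smad3 lies 11.1 Mb from Onecut1 and differed by -0.01 on its brightest probe set. Its other probe sets were both below the filter and differed in opposite directions. One was 0.57 higher in OC1-KO (SE 0.47) with overlapping groups. The dimmest differed by -1.93 (SE 0.53, limma without the filter, unadjusted p = 0.0123), and its groups did not overlap, as held for 7.17% of probe sets below the filter. Tgfbr2 and Acvr2b, 41.2 and 44.5 Mb away on the same chromosome, differed by -0.31 and -0.02. Among the probe sets above the filter within 20 Mb of Onecut1, 15 of 335 (4.48%) had genotypes that did not overlap, 9 higher and 6 lower in OC1-KO, against 44 of 1024 (4.30%) on the whole chromosome.

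**Figure D4:**
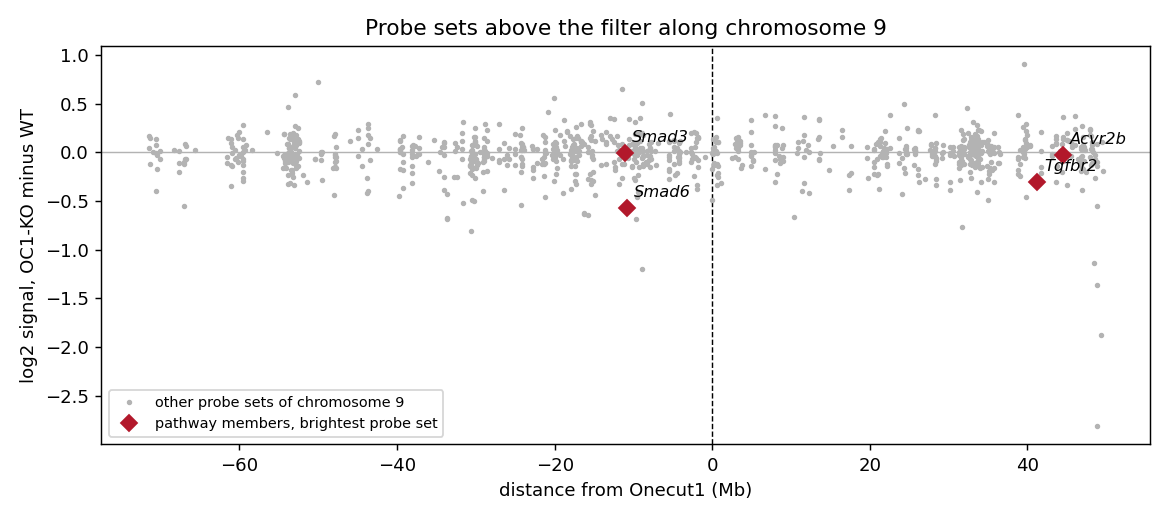
The difference in log2 signal (OC1-KO minus WT, vertical axis) of chromosome 9 probe sets above the filter is plotted by distance from Onecut1 in Mb (horizontal axis), with the pathway genes named. Smad6 at -0.57 and Smad3 at -0.01 lie at nearly the same distance.

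Of the 4 extracellular antagonists, only Fst was above the filter. Fst encodes follistatin, which binds activin, and had log2 signals of 8.43, 8.06 and 8.05 in OC1-KO and 8.23, 8.10 and 8.74 in WT. The groups overlapped (difference -0.18, SE 0.22). Chrd, or chordin, which binds BMPs, had 6.55, 6.88 and 6.29 in OC1-KO and 6.79, 6.50 and 6.81 in WT, overlapping and below the filter. Grem1, another BMP antagonist, differed by -0.04 (SE 0.48).

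Nog, or noggin, which binds BMP ligands outside the cell, had log2 signals of 4.95, 3.85 and 5.10 in OC1-KO and 0.82, 0.84 and 2.87 in WT. The groups did not overlap, as held for 7.17% of probe sets below the filter, and no array was over 7. The means were 4.64 ± 0.68 in OC1-KO and 1.51 ± 1.18 in WT (SD, n = 3 each), a difference of 3.13 (SE 0.68) with a limma unadjusted p of 0.00426, in a fit without the filter in which 5.15% of the probe sets below it had an unadjusted p under 0.05. Of the 11 members below the filter it was the only one that was called at that p or did not overlap, and no fold is given for signals this dim. The 11 were split into 5 higher and 6 lower, with a median of -0.04.

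The Id genes, classical BMP targets that encode inhibitors of bHLH transcription factors, were all above the filter and lay between -0.29 and 0.05, with a median of -0.03. Id3 had log2 signals of 11.25, 11.39 and 12.10 in OC1-KO and 11.64, 11.55 and 11.63 in WT. Id2 had 10.93, 11.53 and 11.59 in OC1-KO and 11.16, 12.15 and 11.61 in WT. The groups overlapped for both (differences -0.03, SE 0.24, and -0.29, SE 0.30). On its brightest probe set Id2 was lower in OC1-KO for all 3 embryo numbers, by 0.23, 0.63 and 0.02. Its other probe set above the filter was not, with differences of -0.53, 0.0002 and 0.28 for embryos 1, 2 and 3 (mean difference -0.08, SE 0.23). Id1 and Id4 differed by -0.03 (SE 0.28) and 0.05 (SE 0.15). Over the 4 Id genes the median difference was -0.31 between embryos 1, -0.11 between embryos 2 and 0.30 between embryos 3. Id4 lay above 0 only on its brightest probe set: its other probe sets differed by -0.29 (limma unadjusted p with the block 0.0436) and -0.07, and the mean over all 3 was -0.10.

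Msx1, a homeobox target of BMP signalling, had log2 signals of 6.71, 7.17 and 8.34 in OC1-KO and 6.55, 6.94 and 7.79 in WT. It had the widest range of the 28 genes, 1.79 over the 6 arrays, and both embryos numbered 3 were above the other 4. OC1-KO was higher by 0.16, 0.23 and 0.55 for embryos 1, 2 and 3, while the groups overlapped (7.41 ± 0.84 in OC1-KO and 7.09 ± 0.63 in WT, SD, n = 3 each; difference 0.31, SE 0.48, limma unadjusted p = 0.535, with the block 0.0578). Without OC1-KO 3 the difference was -0.15, and without both embryos numbered 3, where Msx1 did not reach the filter, it was 0.19 (SE 0.31). The lens, mesenchyme and pigment epithelium sums given above were also highest in the embryos numbered 3. Unlike the lens and mesenchyme sums, the pigment epithelium sum was also higher in OC1-KO for each embryo number (500, 580 and 2088, against 376, 300 and 802 in WT). The same held for the ciliary margin and optic stalk markers, 4 measured. They summed to 906, 678 and 1268 in OC1-KO, against 576, 629 and 908 in WT. This sum was also highest in the embryo numbered 3 of each genotype, and Mitf was in both this list and the pigment epithelium list. The part of these tissues in the Msx1 signal was not tested. The other Msx1 probe set was below the filter and did not follow the embryo number. It had 5.99, 4.12 and 5.47 in OC1-KO and 3.23, 3.84 and 3.84 in WT. These groups did not overlap, as held for 7.17% of probe sets below the filter. The difference was 1.56 (SE 0.53, limma without the filter, unadjusted p = 0.0268, with the block 0.0634). Msx2 had 4.48, 5.59 and 5.68 in OC1-KO and 4.96, 4.90 and 5.27 in WT, overlapping and below the filter.

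The pathway genes differed more between embryo numbers than between genotypes. The gap between the embryos numbered 3 and the other 4 was larger than the gap between genotypes in 21 of the 28 genes, as it was in 75.7% of all probe sets above the filter. Both embryos numbered 3 were above the other 4 for Tgfb3, Acvr1b and Msx1 (3 of 28, against 14.9% of all probe sets). They were below the other 4 for Bmpr1a, Bmpr1b, Bmpr2, Acvr2a, Smad5 and Id1 (6 of 28, against 23.5%). Bmpr1b had 10.58, 10.53 and 9.80 in OC1-KO and 10.50, 10.28 and 9.61 in WT. Paired by embryo number, 3 of the 28 genes were higher in OC1-KO in all 3 pairs, Bmpr1b, Tgfbr3 and Msx1 (10.3% of all probe sets), and 5 were lower in all 3, Bmpr1a, Tgfbr2, Smad1, Smad6 and Id2 (13.1%). These counts lay near the shares of all probe sets.

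**Figure D5:**
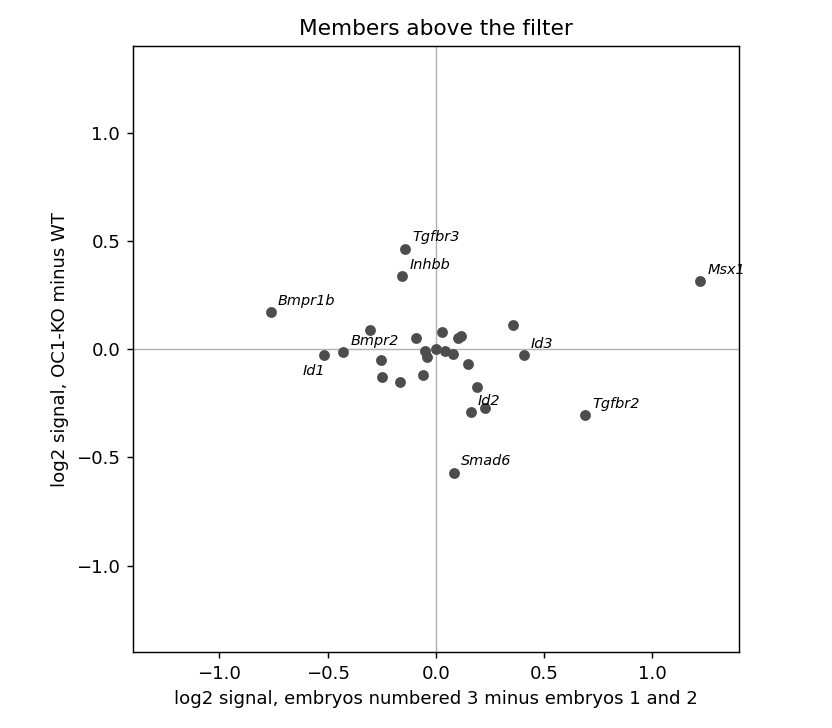
For each gene above the filter the mean log2 signal of the embryos numbered 3 minus that of the embryos numbered 1 and 2 (horizontal axis) is plotted against the OC1-KO minus WT difference (vertical axis, same scale). Msx1, Bmpr1b and Tgfbr2 spread most along the embryo axis, and Smad6 and Tgfbr3 most along the genotype axis.

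Where a member had several probe sets above the filter, these did not always point the same way: the sign differed between probe sets in 8 of 13 genes, Tgfb2, Bmpr1a, Bmpr2, Acvr1, Acvr2a, Acvr2b, Smad4 and Id4. The probe sets of Smad1, Fst and Id2 were all lower and those of Smad2 and Smad5 all higher in OC1-KO. Smad6 was measured by 1 probe set.

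Other genes of the pathway, from a list of 76 (68 measured) that held further ligands, co-receptors, extracellular modulators, intracellular regulators and targets, had similar signals in both genotypes as well. Of the 33 above the filter, 16 were higher (47.7% of all probe sets) and 17 were lower in OC1-KO, with a median of -0.01, and 2 had an unadjusted limma p under 0.05 (1.01% of all probe sets), both lower. Rgmb, a BMP co-receptor of the repulsive guidance molecule family, had log2 signals of 9.43, 9.37 and 9.64 in OC1-KO and 9.96, 9.75 and 10.03 in WT. Every OC1-KO array was below every WT array (difference -0.43, SE 0.16, limma unadjusted p = 0.0286, adjusted p = 1.00). Ccn2, a TGF-beta target, was the second (difference -0.59, SE 0.20, unadjusted p = 0.0221, adjusted p = 1.00). With embryo number as a block, Ltbp1, which tethers latent TGF-beta to the matrix, was also under 0.05 (0.32 higher in OC1-KO, limma unadjusted p = 0.0465), where 4.37% of all probe sets were. Like Msx1 it was high in both embryos numbered 3, and without them it was again 0.32 higher (SE 0.25, limma unadjusted p = 0.253). Twsg1, an extracellular BMP modulator, did not overlap between genotypes (3.56% of all probe sets) and was 0.13 higher in OC1-KO (SE 0.14).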

How the data were processed

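RNA of 6 mouse retinas (3 OC1-KO, 3 WT) was hybridised to Affymetrix whole-genome mouse expression arrays. The deposited values are 1-colour signal intensity per probe set, made by the authors with MAS5 and scaled per array. No depth applies to arrays, and their number limits the precision. The intensity values were taken to log2. Control probe sets were left out, and probe sets were kept where the mean log2 signal was over 7 in either genotype (20888 of 45037). Symbols came from GEO's platform annotation: 34945 probe sets had 1 gene symbol, 932 had several (none of these was named) and 9160 had none. Of those with 1 symbol, 34741 matched a RefSeq gene identifier. A gene was represented by its brightest probe set. Genes below the filter were taken from the fit without it.

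OC1-KO minus WT was fitted over all probe sets with limma 3.58.1 in R 4.3.3 (lmFit, eBayes) and p-values were adjusted by Benjamini-Hochberg; single values also had an exact two-sided permutation test. The code was tested on simulated data. The labels do not say that embryo numbers mark pairs. Deviations from the genotype means correlated between arrays of the same number (0.51, 0.57 and 0.67). The numbers were therefore taken as pairs, and a fit with the number as a block was made beside the fit without it. Correlations between arrays of different number lay from -0.44 to -0.04. Subtracting the genotype means pushes these below 0 when the former are positive, so they add no evidence of their own. The p-values measure the spread between embryos.

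Values per array are given for members with an unadjusted p under 0.05, with or without the block, or with groups that did not overlap, for the 2 brightest members of each role, and for members whose range exceeded 3 log2 units; Bmpr1b, Inhbb and Tgfbr2 were added after their values were seen. The members and lists were chosen with earlier results of these data known. Alternatives were no filter, a filter at 8, quantile normalization, median centring, the block, an intensity trend, the methods' t-test, the mean over a gene's probe sets (only those above the filter for a gene above it), and leaving out arrays. The methods' t-test was run without assuming equal variances, a choice that the methods do not settle.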

Additional observations from a re-analysis of the deposited data

How the results depend on the processing

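The number of arrays limits precision, and 11 of the 39 measured members had signals too dim to test with the others. Limma, the block and the t-tests all gave 0 members and 0 probe sets at an adjusted p under 0.05, and each leave-out did the same. At an unadjusted p under 0.05 the count over all probe sets was 210, and it was 1305 with no filter, 117 with the filter at 8, 121 with an intensity trend, 913 with embryo number as a block and 316 with a t-test of equal variances, which was added after seeing the data. Leaving out single arrays gave 185 to 441, and leaving out both embryos numbered 3 gave 477. Of the members, 2 were under that p, and 2 with the pairing by embryo number as a block. With no filter, with the filter at 8, with the trend and with the methods' t-test, 1 was left. The t-test of equal variances gave 3, and leave-outs gave 1 to 3. The count of members with groups that did not overlap was 3, with 3 to 7 without single arrays and 9 without both embryos numbered 3, where fewer arrays have to be kept apart. It was 2 with the filter at 8, which Tgfbr3 did not reach, and 2 with median centring, under which Smad1 overlapped. The median difference of the members stayed between -0.04 and -0.01 in the leave-outs.

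Single members kept their direction under every alternative run in 12 of 28 genes above the filter, Smad6, Tgfbr3 and Smad1 among them, and in 5 of 11 below it, Nog among them. For genes above the filter, these alternatives left out their dimmer probe sets below it, which can go the other way, as for Tgfbr3 (-0.68). Taking the mean over the probe sets of a gene (only those above the filter for a gene above it) instead of the brightest reversed Bmpr2 (0.15), Acvr1 (0.039), Acvr2a (0.0039), Acvr2b (0.067), Smad4 (-0.017), Id4 (-0.10) and Msx2 (-0.29). Quantile normalization reversed Acvr1 (0.0002), and median centring Acvr1 (0.0034) and Smad3 (0.0052). The cause was not tested. Leaving out arrays turned the sign of some members. Without single arrays they ranged as follows: Gdf11 -0.46 to 0.17, Inhba -1.31 to 0.13, Tgfb1 -0.56 to 0.12, Tgfb2 -0.19 to 0.095, Tgfb3 -0.037 to 0.29, Bmpr1b -0.088 to 0.42, Bmpr2 -0.17 to 0.15, Acvr1 -0.089 to 0.084, Acvr2a -0.15 to 0.086, Acvr2b -0.091 to 0.035, Smad3 -0.036 to 0.015, Smad4 -0.038 to 0.15, Smad5 -0.0095 to 0.19, Smad7 -0.069 to 0.10, Chrd -0.28 to 0.016, Grem1 -0.42 to 0.35, Fst -0.31 to 0.016, Id1 -0.28 to 0.26, Id3 -0.29 to 0.14, Id4 -0.047 to 0.12, Msx1 -0.15 to 0.66 and Msx2 -0.0064 to 0.59. Without both embryos numbered 3 the sign turned for Gdf11 (0.24), Tgfb1 (0.11), Acvr2a (0.050), Smad4 (-0.019), Smad7 (-0.048), Chrd (0.072), Grem1 (0.085), Fst (0.080) and Id4 (-0.078).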
